A study of Mus musculus with 12 samples.

Results

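The let-7 family of microRNAs (miRNAs), with its member miR-98, was described in a mouse cell line that is sensitive to rapamycin and in a resistant line derived from it. Members were the array probes named let-7a to let-7i, or miR-98, without the star that marks a passenger strand in the array's naming. This gave 9 of the 417 mouse miRNA probes: let-7a, let-7b, let-7c, let-7d, let-7e, let-7f, let-7g, let-7i and miR-98. The cells were BC3H1, a mouse brain tumour line with myogenic properties, in a medium with 20% serum. The RS_DMSO group held sensitive cells given the solvent DMSO for 24 h, and the RS_Rap group held sensitive cells given 100 nM rapamycin for 24 h. The RR_Rap group held the resistant line RR1, obtained by growth in 1 µM rapamycin over 6 months and kept in the drug, so resistance and long exposure cannot be told apart, and no resistant cells without rapamycin were analysed here. RR1 was the only resistant line. Each group had 4 arrays. The labels do not say whether these came from separate cultures, so every p-value rests on a spread between samples that may be technical only.

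Rapamycin blocks mTORC1, a kinase complex that drives protein synthesis and growth. The let-7 miRNAs are made from many loci and pair with messenger RNAs through a common seed, the bases near the 5′ end that choose the target. They were found in the nematode Caenorhabditis elegans as regulators of developmental timing. In mammals they rise as cells differentiate, are kept low in early cells by the RNA-binding protein Lin28, and repress growth and cell cycle genes such as Ras, Myc and Hmga2. A loss of let-7 is common in tumours.

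The mature sequences are shown because the members differ by so little that a probe for one may also bind another, and because the seed is what they share. They are RefSeq's on build GRCm38.p6, found for all 9 members, and the capitals mark the seed, bases 2 to 8 from the 5′ end.
let-7a: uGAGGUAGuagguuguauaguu
let-7b: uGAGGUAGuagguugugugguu
let-7c: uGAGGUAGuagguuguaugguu
let-7d: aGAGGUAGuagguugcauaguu
let-7e: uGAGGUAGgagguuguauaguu
let-7f: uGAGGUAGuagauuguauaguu
let-7g: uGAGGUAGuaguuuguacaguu
let-7i: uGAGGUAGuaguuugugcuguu
miR-98: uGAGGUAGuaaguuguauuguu

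All 9 are 22 bases long and share 1 seed. Over the 36 pairs of members, the mature sequences differed at 1 to 6 bases. With positions counted from 1 at the 5′ end and the base of the first-named member given first, let-7a and let-7c differed by A19G, let-7a and let-7e by U9G, let-7a and let-7f by G12A, and let-7b and let-7c by G17A. These were the 4 pairs with a single difference. The member with the lowest mean ratio in the resistant line, let-7i, differed from let-7a at 4 bases (G12U, A17G, U18C and A19U). The probes' own sequences were not given in the sources used here, and binding of one member to another member's probe was not tested.

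The loci are spread over the genome. On GRCm38.p6, the mature let-7a of Mirlet7a-1 lies at chr13:48538239-48538260, that of let-7f at chr13:48537889-48537910 and let-7d at chr13:48536078-48536099, all on the minus strand within 1 cluster of hairpins. On the plus strand of chromosome 15, let-7c lies at chr15:85706616-85706637 and let-7b at chr15:85707325-85707346. On the plus strand of the X chromosome, a second let-7f copy lies at chrX:151912353-151912374 and miR-98 at chrX:151913229-151913250. A second let-7c copy lies next to Mir99a on chromosome 16, let-7e next to Mir125a on chromosome 17, and the hairpin Mirlet7a-2 between Mir100 and Mir125b-1 on chromosome 9. The other two members stand alone: let-7g at chr9:106178846-106178867 on the plus strand and let-7i at chr10:122985698-122985719 on the minus strand. The array reads mature miRNAs, so the copies of let-7a, let-7c and let-7f cannot be told apart.

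Every array carried 1 sample in the dye Hy3 beside the same reference pool in Hy5, and dyes were never swapped. A value is the log2 ratio of sample to pool after loess, which sets the typical ratio at each brightness to 0 on each array. RS_DMSO 3 stood apart from the other arrays. Its correlations with the other DMSO arrays over the 417 probes were 0.574 to 0.709, against at least 0.828 within every other pair of the same group, its brightest negative-control probe had a Hy3 signal of 303 against 125 to 164 elsewhere, and 134 mouse probes exceeded that control, against 181 to 228. Of the fixed muscle markers 2 of 7 were above the negative controls (miR-1 and miR-206, but not miR-133a or miR-133b), as were 2 of 2 smooth muscle, 3 of 7 neuron, 2 of 6 blood, 0 of 5 epithelial and 0 of 2 endothelial markers.

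The let-7 family was well detected as a whole, with 8 of 9 members above the negative controls in at least 1 group, as were 218 of the 417 mouse probes. Hy3 spot signals, in scanner units before normalization, are compared between groups only within a probe or as a sum over a fixed list of marker probes. Probes differ in brightness per molecule, so signals of different probes do not rank amounts. Over the 12 arrays the let-7a probe ran from 2539 to 15036 (median 10858), the let-7c probe from 1259 to 6927 (median 4957) and the let-7b probe from 840 to 3578 (median 2667). The let-7d probe ran from 1329 to 4107 (median 2677), and the let-7i probe from 415 to 2160 (median 1480). These 5 probes exceeded the brightest negative control on all 12 arrays, by 15.7 to 118 times for let-7a and by 3.12 to 17.1 times for let-7i.

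The dimmer probes were nearer to background. Signals of let-7e ran from 190 to 430, of let-7f from 132 to 275 and of miR-98 from 190 to 553, and all 3 exceeded the brightest negative control on 11 of 12 arrays, RS_DMSO 3 being the exception. The let-7g probe, at 119 to 172, exceeded it on 3 of 12 arrays (0 of 4 RS_DMSO, 2 of 4 RS_Rap and 1 of 4 RR_Rap arrays), and its pool signal exceeded the local background on 6 of 12, so its ratios carry little information. RR_Rap 2 was the dimmest array for each of the 5 bright probes in Hy3, and in Hy5 for all of them but let-7d: its let-7a signal was 2539 in Hy3 and 3495 in Hy5.

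**Figure D1:**
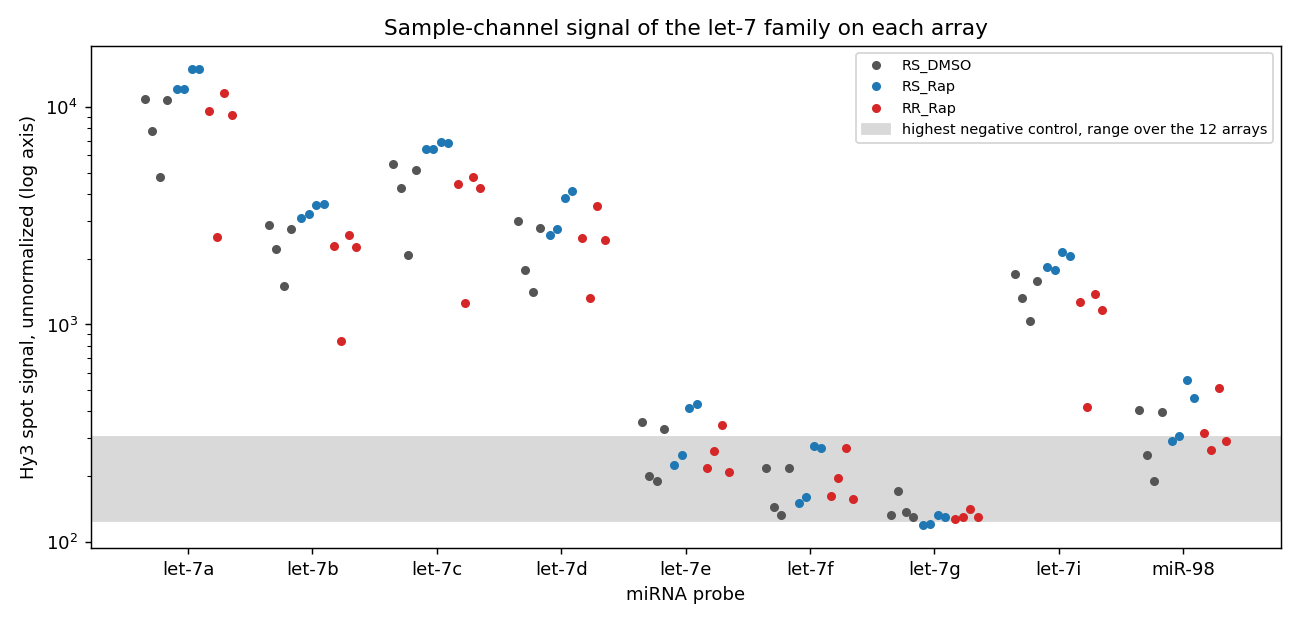
Hy3 spot signal (scanner units, log axis) of each member's probe on each of the 12 arrays, coloured by group, each point 1 array. The grey band spans the highest negative-control signal of the 12 arrays, 125 to 303. The 5 probes let-7a, let-7b, let-7c, let-7d and let-7i lie above the band on every array, and let-7g lies inside or below it.

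In the resistant line against sensitive cells in DMSO, 4 of 9 members passed the test: let-7i, let-7b and let-7c were lower and let-7f was higher. Over all 417 probes 23.3% were called, 12.9% higher against 1 of 9 members and 10.3% lower against 3 of 9. Of the 218 probes above the negative controls, 48 were called higher and 32 lower. The arrays of the same 4 members did not overlap between the groups, as for 25.4% of all probes (14.1% higher and 11.3% lower). The members are related probes, so these counts describe them and were not tested. Its median log2 change was 0.09, against -0.01 over all probes. The changes were small: the largest, that of let-7i, was 1.36-fold. Tests are limma's with Benjamini-Hochberg adjustment over the 417 probes, a threshold of 0.05 and n = 4 arrays a group, and errors beside changes are the standard errors (SE) of that fit.

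The member that fell furthest was let-7i, which is made from a locus of its own. Its log2 ratios to the pool were 0.20, 0.12, 0.27 and 0.15 on the RS_DMSO arrays, 0.10, 0.04, 0.12 and 0.12 on the RS_Rap arrays, and -0.25, -0.15, -0.29 and -0.34 on the RR_Rap arrays. All 4 resistant arrays lay below 0 and below all 8 sensitive arrays. The change against DMSO was -0.44 ± 0.05 (SE; limma adjusted p = 2.05e-05), from a mean of 0.19 ± 0.06 (SD) to -0.26 ± 0.08. It was called lower under all 12 other ways of processing tried, at -0.59 to -0.35, and without each array in turn, at -0.48 to -0.41. For this and every other member, the 12 ways use the same arrays and are not separate checks. The negative-control filter, the replicate block and leaving out an RS_Rap array cannot move this estimate (-0.44 in each). No loess, spike-in centring and median centring differ only by a constant on each array.

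The neighbours let-7b and let-7c on chromosome 15, which differ at 1 base, were lower too. Ratios of let-7b were 0.19, 0.35, 0.33 and 0.16 in RS_DMSO, 0.22, 0.24, 0.25 and 0.14 in RS_Rap, and 0.00, -0.12, 0.00 and 0.01 in RR_Rap. Here too the resistant arrays did not overlap with either sensitive group. The change against DMSO was -0.28 ± 0.05 (SE; limma adjusted p = 0.00131), or 1.22-fold lower. It kept its direction under the 12 other ways of processing and was called in 10 of them, but not with the scanner software's processed signals (-0.28, adjusted p = 0.0531) or with the Hy3 channel alone (-0.19, adjusted p = 0.366).

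For let-7c the ratios were 0.17, 0.29, 0.12 and 0.10 in RS_DMSO, 0.13, 0.19, 0.14 and 0.13 in RS_Rap, and 0.03, 0.06, -0.01 and -0.05 in RR_Rap. The groups did not overlap, but the gap was narrow. The change was -0.17 ± 0.05 (SE; limma adjusted p = 0.0215), or 1.12-fold lower. It lay between -0.21 and -0.12 under the 12 other ways of processing and was called in 5 of them. The call was lost without RR_Rap 3 (adjusted p = 0.0567) or RR_Rap 4 (adjusted p = 0.0720).

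The size of the let-7f change depended on the scaling. Its ratios were -0.32, -0.03, -0.38 and -0.01 in RS_DMSO, -0.10, -0.11, 0.07 and -0.02 in RS_Rap, and 0.11, 0.08, 0.16 and 0.09 in RR_Rap. All 4 resistant arrays were above all 8 sensitive arrays, and the DMSO arrays were spread widely. The change against DMSO was 0.30 ± 0.08 (SE; limma adjusted p = 0.0197), or 1.23-fold higher, but it was 0.08 (adjusted p = 0.632) without loess, 0.00 in the deposited value table and -0.01 with spike-in or median centring. With the scanner's processed signals it was 0.45 (adjusted p = 0.0615) and with Hy3 alone 0.48 (adjusted p = 0.192). It was called in 6 of the 12 other ways of processing and was lost without RS_DMSO 1 (adjusted p = 0.0607) or RR_Rap 3 (adjusted p = 0.0567). Its probe was dim, with Hy3 signals 0.44 to 2.32 times the brightest negative control.

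For let-7a, the brightest probe of the family, no difference between the resistant line and DMSO was found. Its ratios were 0.13, 0.24, 0.18 and 0.10 in RS_DMSO, 0.15, 0.11, 0.20 and 0.14 in RS_Rap, and 0.19, 0.13, 0.13 and 0.14 in RR_Rap. The 3 groups overlapped. The change against DMSO was -0.02, with a 95% interval of -0.10 to 0.07, and it lay between -0.09 and 0.08 under the 12 other ways of processing.

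The estimated changes of the members were therefore unequal on the same arrays, but differences between members were not tested. Below, let-7i is taken because it fell furthest. The ratio of let-7i less that of let-7a, which compares changes and not levels, was -0.12 to 0.08 in RS_DMSO, -0.09 to -0.02 in RS_Rap and -0.48 to -0.28 in RR_Rap. The resistant arrays did not overlap with the others on this measure. Without loess it was 0.00 to 0.35 in RS_DMSO, -0.15 to -0.09 in RS_Rap and -0.33 to 0.02 in RR_Rap, so that the resistant arrays overlapped slightly with DMSO and spanned the whole RS_Rap range. RR_Rap and RS_DMSO also overlapped in the deposited value table (-0.31 to 0.03 and 0.02 to 0.44) and with Hy3 alone (-3.42 to -2.69 and -3.05 to -2.19). They did not overlap with processed signals, an offset of 10 or no background subtraction.

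The other members did not pass the test in this comparison. The change of let-7d was 0.09 ± 0.05 (SE; limma adjusted p = 0.278) and that of let-7g 0.09 ± 0.07 (adjusted p = 0.420). For let-7e and miR-98 the value depended on RS_DMSO 3. Ratios of let-7e in RS_DMSO were -0.01, 0.03, -1.07 and 0.04, and those of miR-98 were -0.22, -0.27, -1.20 and -0.16, the third value being that array in both. The change of let-7e was 0.14 ± 0.20 (adjusted p = 0.699) with the array and -0.13 (adjusted p = 0.0984) without it, and that of miR-98 was 0.37 ± 0.19 (adjusted p = 0.202) with it and 0.12 (adjusted p = 0.217) without it.

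**Figure D2:**
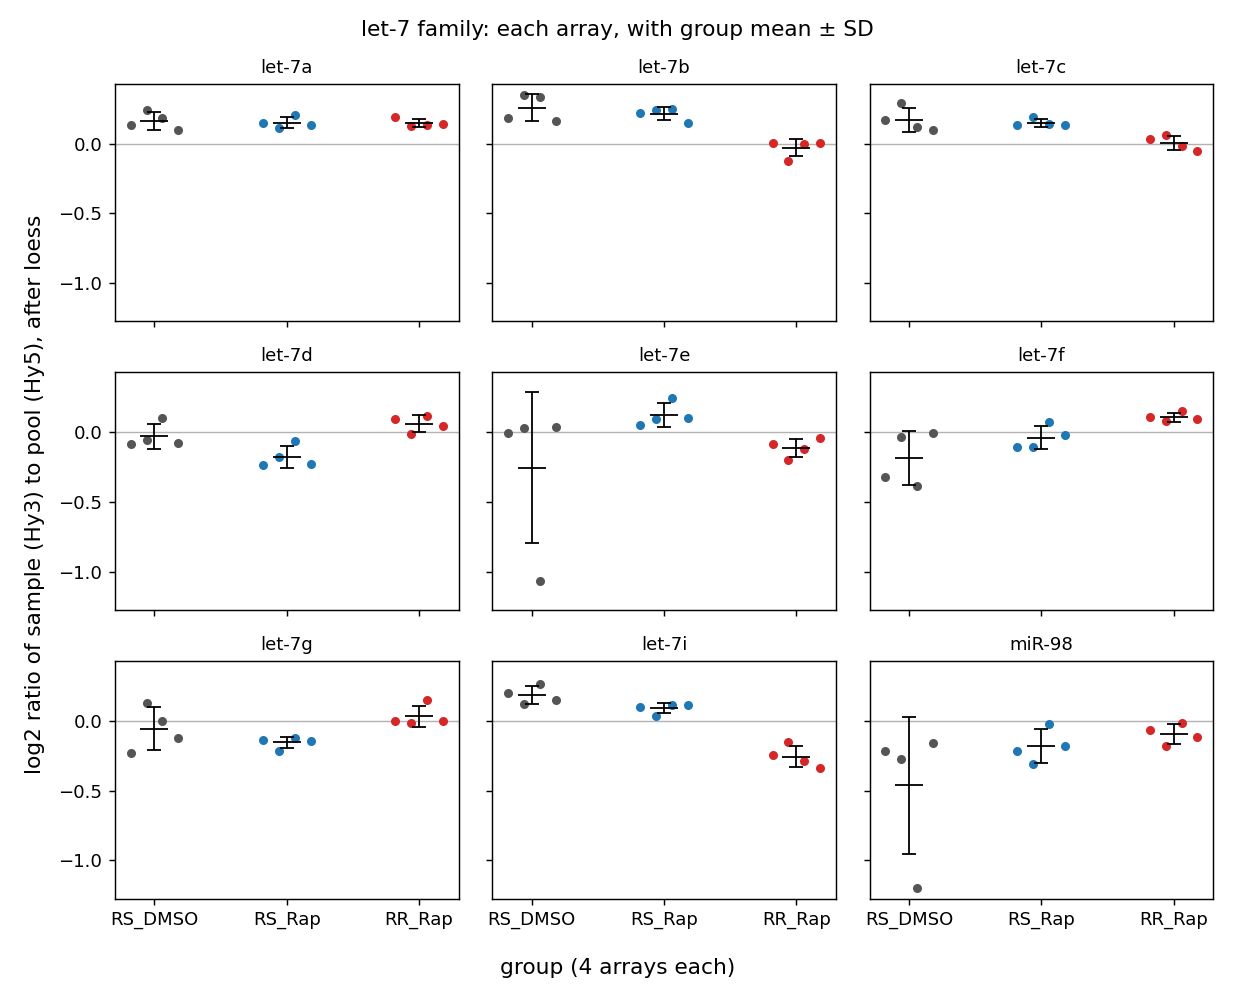
Log2 ratio of sample (Hy3) to pool (Hy5) after loess, 1 panel a member and 1 point an array, with the group mean ± SD over 4 arrays. The 4 RR_Rap points of let-7i (-0.34 to -0.15) and let-7b lie below all sensitive points, those of let-7f above them, and the let-7a groups overlap. The single low RS_DMSO points of let-7e (-1.07) and miR-98 (-1.20) are both RS_DMSO 3.

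After 24 h of rapamycin, 0 of 9 members passed limma's test against DMSO, where 3.36% of all 417 probes were called (1.68% in each direction, 7 higher and 7 lower). At an unadjusted p under 0.05 the count was 1 of 9, against 23.5% of all probes. This was let-7d, which with ratios of -0.09, -0.06, 0.10 and -0.08 in RS_DMSO against -0.23, -0.18, -0.06 and -0.22 in RS_Rap changed by -0.15 ± 0.05 (SE; adjusted p = 0.141). The arrays of 2 members did not overlap between the groups (14.9% of all probes, 6.24% higher and 8.63% lower), let-7e being higher at 0.38 ± 0.20 (adjusted p = 0.271) and let-7i lower at -0.09 ± 0.05 (adjusted p = 0.257). Without RS_DMSO 3 the value of let-7e fell to 0.11 and that of miR-98 from 0.28 to 0.04. The changes of let-7a, let-7b and let-7c were -0.01, -0.04 and -0.02, with SEs of 0.04, 0.05 and 0.05, and the family's median change was -0.02, the same as over all probes.

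This result depended on the normalization more than any other. Without loess, 7 of 9 members were called higher after 24 h, let-7a by 0.89, let-7c by 0.81, let-7b by 0.74, let-7d by 0.64, let-7i by 0.63, let-7e by 0.56 and miR-98 by 0.55, and the family's median was 0.63. The rest of the array moved as well: 117 of the 417 probes were called higher and 1 lower, and the median of all probes was 0.11. The deposited value table, spike-in centring and median centring, none of which removes a trend with brightness, also called 7 of 9 higher, with family medians of 0.59, 0.56 and 0.49. These settings called 26.6%, 27.6% and 29.5% of all probes, and no loess 28.3%. The scanner software's processed signals, which carry its own dye normalization, called 0 of 9 and 8.39% of all probes. So did the Hy3 channel alone after quantile normalization, at 0.48% of all probes, where all 9 changes were above 0 with a median of 0.26.

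The size of the loess correction shows where the 2 answers part. Before loess the let-7a ratio was -0.45 to -0.24 on the RS_DMSO arrays, 0.43 to 0.61 on the RS_Rap arrays and -0.46 to -0.30 on the RR_Rap arrays. Loess subtracted a mean of -0.53 from let-7a in RS_DMSO, 0.37 in RS_Rap and -0.51 in RR_Rap. Across the 417 probes, which share their arrays, the change after 24 h correlated with mean brightness at r = 0.78 without loess and 0.08 with it. For the resistant line against DMSO, where both groups had a like correction, r was -0.12 without loess and 0.01 with it. For RR_Rap against RS_Rap it was -0.51 without loess and -0.02 with it. Loess subtracts the trend with brightness on each array, so an r near 0 after it follows from the method.

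The Hy3 signals of RS_Rap stood apart for some of the bright members, and the Hy5 signals of the pool did not. For let-7a the mean Hy3 signal was 8558 ± 2920 (SD, n = 4) in RS_DMSO, 13574 ± 1679 in RS_Rap and 8258 ± 3953 in RR_Rap, while the mean Hy5 signal of the pool was 10924 ± 3345, 9460 ± 814 and 10463 ± 4834, with overlapping arrays. All 4 RS_Rap arrays had higher Hy3 signals than all other arrays for let-7a, let-7b, let-7c and let-7i. They overlapped with the others for the bright let-7d, at 2593 to 4107 against up to 2988 in RS_DMSO and 3518 in RR_Rap. The dim let-7e, let-7f, let-7g and miR-98 overlapped too. With no dye swap, and with each group's arrays scanned in succession, a change shared by most bright miRNAs and a dye or scan effect of the same shape cannot be told apart.

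**Figure D3:**
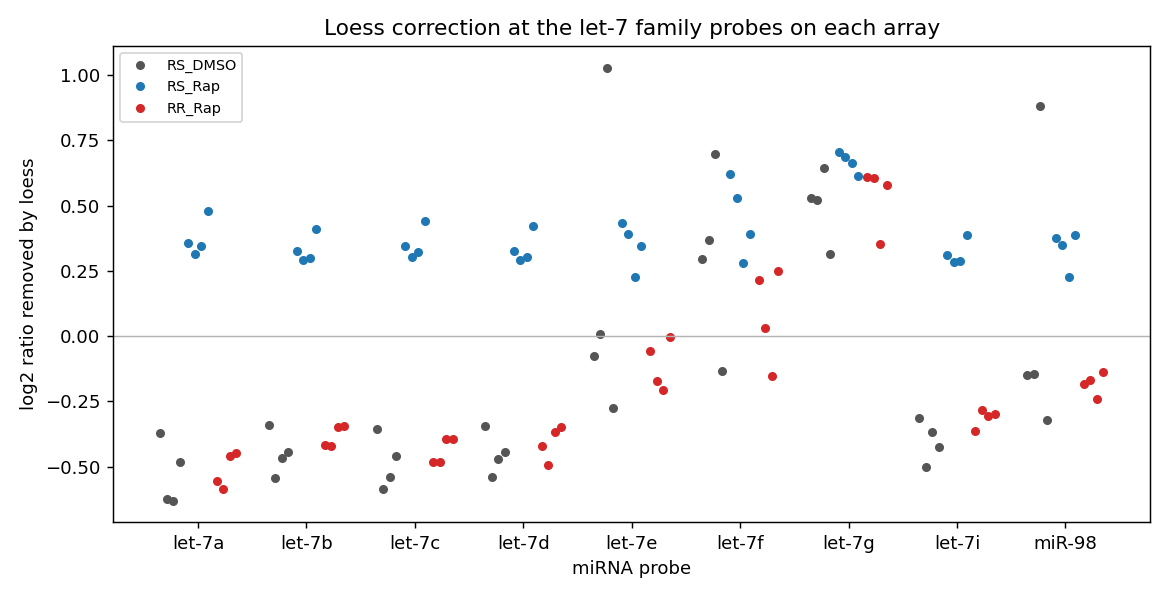
Log2 ratio that loess subtracted at each member's probe, 1 point an array, coloured by group. At let-7a the RS_Rap points lie at 0.32 to 0.48 and the points of both other groups at -0.63 to -0.37. RS_DMSO 3 stands alone at let-7e (1.03) and miR-98 (0.88).

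When RR_Rap was compared with RS_Rap, let-7i, let-7b and let-7c were lower and let-7d was higher, again 4 of 9. Of all probes 28.8% were called (15.1% higher and 13.7% lower). Of the 218 probes above the negative controls, 56 were higher and 38 lower. Both groups had rapamycin, but at different doses and for different times. The comparison with DMSO uses the same RR_Rap arrays, so these calls are not a second sample of the resistant line. The change of let-7i was -0.35 ± 0.05 (SE; limma adjusted p = 0.000116), of let-7b -0.24 ± 0.05 (adjusted p = 0.00436) and of let-7c -0.14 ± 0.05 (adjusted p = 0.0361). All 3 stayed below 0 under the 12 other ways of processing. Skipping loess put the 3 at -0.98, -0.96 and -0.93, but let-7a at -0.89 too, so most members share that sign there. Spike-in centring put let-7a at -0.90, and the deposited table at -0.88. The negative-control filter and replicate block cannot move any estimate. Processed signals called let-7i (adjusted p = 0.0200) but not let-7b (0.150) or let-7c (0.634). Hy3 alone called let-7i (adjusted p = 0.00219) but not let-7b (0.312) or let-7c (0.0721). The call of let-7c was lost when any one RS_Rap array, RR_Rap 1, RR_Rap 3 or RR_Rap 4 was left out, with adjusted p of 0.0579 to 0.106.

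The value of let-7d was 0.24 ± 0.05 (SE; limma adjusted p = 0.00602) but turned to -0.51 without loess. In the deposited value table it was -0.26 (adjusted p = 0.409, not called), where let-7d less let-7a spread from -0.04 to 1.03 over the RR_Rap arrays. After loess the let-7d ratios in RR_Rap were 0.10, -0.01, 0.12 and 0.05, above the 4 RS_Rap values. Arrays did not overlap for 7 of 9 members, 3 of them higher and 4 lower, where 39.8% of all probes did not overlap (21.3% higher and 18.5% lower). Of the 3 members among these that were not called, let-7g changed by 0.19 ± 0.07 (adjusted p = 0.0612), let-7f by 0.15 ± 0.08 (adjusted p = 0.210) and let-7e by -0.24 ± 0.20 (adjusted p = 0.452, or 0.00246 without RS_DMSO 3, which enters the shared spread). The changes of let-7a and miR-98 were -0.00 and 0.09. Without loess 7 of 9 were called lower, where 100 of the 417 probes were called lower and 21 higher. RS_Rap is the group in which the mean correction of let-7a had the other sign.

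**Figure D4:**
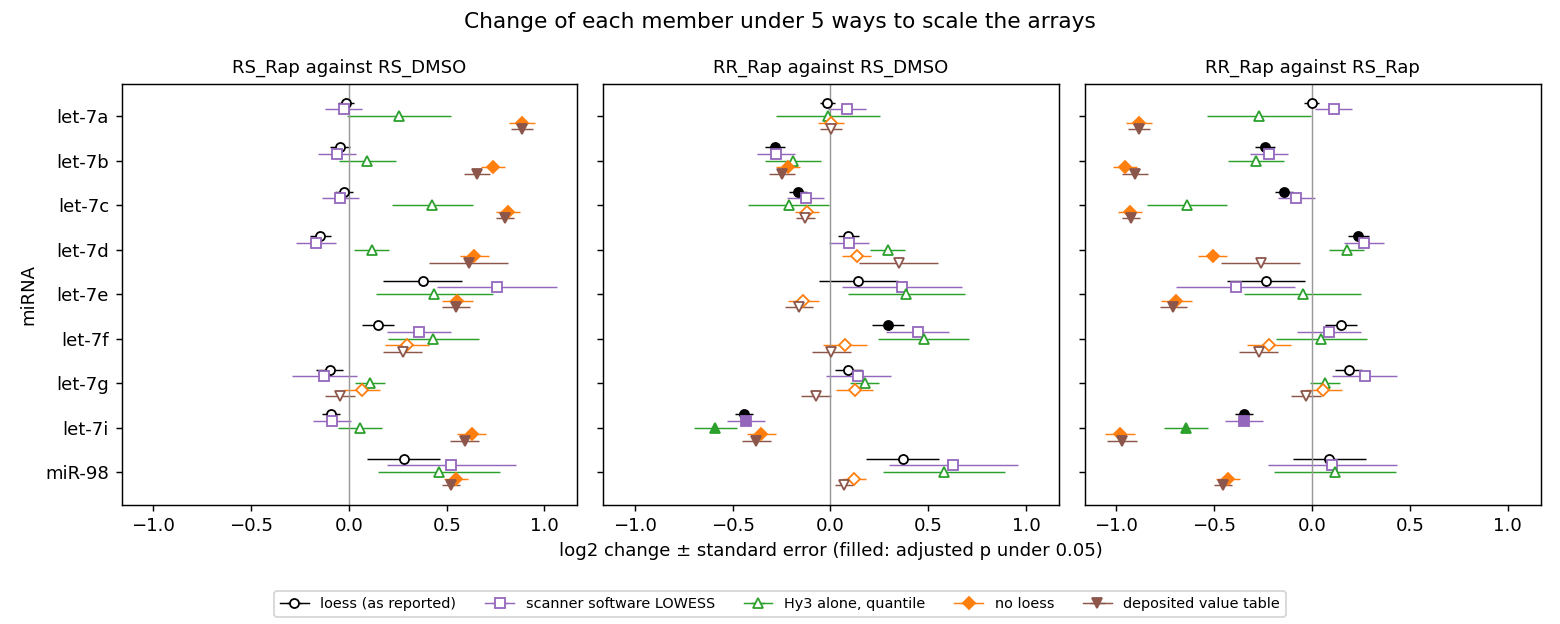
Log2 change ± SE of each member in the 3 comparisons under 5 ways of scaling the arrays, with filled symbols where the adjusted p was under 0.05. For let-7a, let-7b, let-7c, let-7d and let-7i after 24 h, the loess, scanner and Hy3-alone values (at most 0.43) lie below those without loess and of the value table (at least 0.59). For let-7e, let-7f, let-7g and miR-98 they interleave.

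The strands and genes that flank the family gave a partly different picture. None of the 4 probes for let-7 passenger strands, the arm of the hairpin that is mostly discarded, was called in any of the 3 comparisons, and only the probe shared by let-7a* and let-7c-2* was above the negative controls. Its change in the resistant line against DMSO was -0.06 ± 0.08 (SE; limma adjusted p = 0.699). The passenger strand of let-7i, not above the negative controls, changed by 0.03 ± 0.04.

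Of the 5 miRNAs encoded in clusters with let-7 copies (miR-99a, miR-99b, miR-100, miR-125a-5p and miR-125b-5p), all above the negative controls, 2 fell in the resistant line against DMSO, where 10.3% of all probes were lower. These were miR-125b-5p, by 0.85 on the log2 scale (limma adjusted p = 6.76e-07), and miR-125a-5p, by 0.41 (adjusted p = 0.000135), whose locus is next to that of let-7e. The changes of miR-99a, miR-99b and miR-100 were -0.03, -0.06 and -0.08. After 24 h, miR-125b-5p was the 1 of 5 called, higher by 0.28 (adjusted p = 0.0321), where 1.68% of all probes were higher. This comparison and the one against RS_Rap both use the group in which the mean loess correction of let-7a had the other sign. Against RS_Rap 3 of 5 were lower, where 13.7% of all probes were lower. Their changes were -1.13 for miR-125b-5p, -0.41 for miR-125a-5p and -0.43 for miR-100 (adjusted p = 0.0364 for the last). Of the let-7 members beside these genes, let-7c was lower and let-7a and let-7e were not called. Their copies elsewhere enter the same let-7a and let-7c probes.

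Beside the let-7i, let-7b and let-7c values, both smooth muscle markers were lower in the resistant line than in DMSO: miR-143 with a log2 change of -2.02 (limma adjusted p = 4.55e-07) and miR-145 with one of -0.20 (adjusted p = 0.0273). Their summed Hy3 signal was 1224 to 2309 in RS_DMSO, 2554 to 2994 in RS_Rap and 344 to 686 in RR_Rap. The 7 muscle markers summed to 1170 to 1287, 1127 to 1217 and 868 to 997, with none called against DMSO, and 5 of the 7 were not above the negative controls. Of the 7 neuron markers, miR-137 (-0.29, adjusted p = 0.00562) and miR-124 (-0.12, adjusted p = 0.0471) were lower than in DMSO, neither being above the negative controls. The neuron list summed to 846 to 1277, 785 to 858 and 836 to 880. None of these sums, smooth muscle included, is normalized. The muscle and neuron sums also include probes not above the negative controls, so background makes up part of those. Neither smooth muscle marker was called after 24 h of rapamycin, where 3.36% of all probes were called. No epithelial, blood or endothelial marker was called in the resistant line against DMSO, and of these only 2 blood markers were above the negative controls. Of all probes, 23.3% were called in that comparison, 10.3% of them all as lower. The part of these markers in the let-7 values was not tested. In these bulk samples, fewer cells of a type and less RNA per cell cannot be told apart.

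Members varied together only in part, and many pairs had a negative r. Across the 12 arrays, as a description of ratios that share a pool and the normalization, let-7i correlated with let-7b at r = 0.82 and with let-7c at 0.78. These are the members called lower in RR_Rap, so their r includes that difference between groups. On the negative side, r was -0.76 for let-7f with let-7i, -0.64 for let-7b with let-7f and -0.55 for let-7c with let-7d. The highest r of the 36 pairs, 0.89 between let-7e and miR-98, includes the low values of both on RS_DMSO 3. Among 210 other mouse probes above the negative controls, the 5 whose ratios were most like the family mean over the 12 arrays were the probe shared by the passenger strands of miR-467a and miR-467d (r = 0.92), miR-466d-3p_MM1 (0.89), miR-350 (0.87), miR-380-3p (0.84) and miR-100 (0.80). The family mean was lowest on RS_DMSO 3, at -0.18, and -0.05 to 0.09 on the other arrays. On RS_DMSO 3 the family median was 0.10 and 6 members were above 0. The low mean there thus reflects a few low members, among them the dim let-7e and miR-98. The r values of these 5 probes with the family mean include that array. RefSeq names 2 other mouse miRNAs with the same bases 2 to 8, let-7k and miR-1961, which were not analysed here.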

How the data were processed

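Spot intensity values were made by Agilent Feature Extraction 9.5.3.1 on Exiqon miRCURY LNA arrays, per the file headers, and are not normalized. The same software gave processed intensity values, per the file headers background-adjusted and dye-normalized. The deposited value table holds log2 values that followed the raw log2 ratio of Hy3 over Hy5 (r = 0.975 to 0.999, slopes 0.938 to 1.003), with column medians of 0.393 to 0.604, so it runs sample over pool and is not centred, and how spots were summarised in it is not stated. The labels give 2 accounts of the Hy5 pool that do not match each other or the number of arrays, so its makeup is unsettled.

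Mean signals were corrected in limma 3.58.1 (R 4.3.3) by normexp with an offset of 50, normalized within arrays by loess (span 0.3, control spots at weight 0), averaged over the 4 spots of a probe without those that the software marked as outliers (1 spot each for let-7b, let-7d, let-7f and let-7g), and fitted with lmFit and eBayes to all 12 arrays. The software's well-above-background mark removed no probe, so 417 were tested. A probe was above the negative controls if, in 1 group, at least 3 arrays gave it more Hy3 signal than any of the 7 control probes of that kind. The offset shrinks changes of dim probes, and the number of arrays limits precision. Each array is its own slide, and all were scanned group by group, so scan order and group cannot be told apart. The same-numbered samples of different groups did not deviate together (r = -0.11 to 0.15), so no pairing was used. Every member was named in every comparison. Members and lists were chosen with earlier results of these data known. The procedure was tested on simulated data.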

Additional observations from a re-analysis of the deposited data

Results flagged for a closer look

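In 5 of 27 sets of 4 arrays (9 members in 3 groups), the ratio of 1 array stood apart from the other arrays by Dixon's gap measure, which is the gap to the nearest array over the range of the group and was set against the 95% limit for 4 values. Chance gives such a gap in about 1 of 20 sets. Of these, 3 were RS_DMSO 3: let-7e at -1.07 with the nearest array at -0.01 (gap measure 0.960), miR-98 at -1.20 with the nearest at -0.27 (0.888), and let-7d at 0.10 with the nearest at -0.06 (0.835). Before loess the ratios of RS_DMSO 3 were -0.04 for let-7e and -0.32 for miR-98, against -0.24 to 0.04 and -0.48 to -0.37 on the other DMSO arrays. In RR_Rap, let-7b was at -0.12 on RR_Rap 2 with the nearest array at 0.00 (0.958), and without that array let-7b in the resistant line against DMSO was -0.25 (limma adjusted p = 0.00484). The fifth, let-7g at 0.15 on RR_Rap 3 with the nearest at 0.00 (0.912), belongs to the probe that is mostly not above the negative controls. The causes were not tested.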

How the results depend on the processing

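The count of members called after 24 h against DMSO, 0 as reported, became 7 without loess, in the deposited value table, and with spike-in or median centring. The share of all probes called moved as well, from 3.36% to 28.3%, 26.6%, 27.6% and 29.5% in that order. The count for RR_Rap against RS_DMSO, 4 as reported, became 2 with the ratios not normalized, the value table or either centring. It became 1 with processed signals, 1 with Hy3 alone, and 2 to 4 without each array in turn (2 without RR_Rap 3). Beside it, 23.3% of all probes were called as reported, 24.5% without loess and 18.2% in the value table. With spike-in and median centring the share was 20.6% and 24%. It was 24.2% with processed signals, 13.2% with Hy3 alone and 18.5% to 25.7% without each array. The count for RR_Rap against RS_Rap, 4 as reported, became 7 without loess and with either centring, 6 in the value table, 1 with processed signals, 1 with Hy3 alone, 6 with array weights, and 3 to 5 without each array. Of all probes, 28.8% were called as reported, 29% without loess, 32.9% and 59% with spike-in and median centring, and 32.6% in the value table. That share was 21.1% with processed signals, 12.9% with Hy3 alone, 43.9% with array weights and 23.3% to 34.8% without each array. With the replicate number as a block the counts were 0, 4 and 4 (4.8%, 21.3% and 27.1% of all probes), so the block changed no family count.

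After 24 h let-7a, let-7b, let-7c, let-7d and let-7i turned from below to above 0, in that order to 0.89, 0.74, 0.81, 0.64 and 0.63 without loess, 0.88, 0.66, 0.80, 0.61 and 0.59 in the deposited table, 0.82, 0.67, 0.75, 0.57 and 0.56 with spike-in centring, 0.75, 0.60, 0.68, 0.51 and 0.49 with median centring, and, none of them called, 0.26, 0.10, 0.43, 0.12 and 0.056 with Hy3 alone. In RR_Rap against RS_Rap, in the order no loess, value table, spike-in and median centring, let-7d turned to -0.51, -0.26 (not called), -0.52 and -0.46. In that order miR-98 turned to -0.43, -0.45, -0.44 and -0.38, and let-7f, not called, to -0.22, -0.27, -0.23 and -0.17. In RR_Rap against RS_DMSO, let-7f turned to -0.0051 with spike-in and -0.012 with median centring, and let-7e, not called, to -0.14, -0.16, -0.22 and -0.23 in the same order of settings, to -0.042 with array weights, and to -0.13 to 0.24 without each array. The dim let-7g, not called in these settings, turned to 0.066 without loess and 0.11 with Hy3 alone after 24 h, and in the value table to -0.074 against DMSO and -0.029 against RS_Rap. Values near 0 also changed sign. For let-7a these were, after 24 h, 0.0063 with offset 10 and -0.036 to 0.013 without each array, and in RR_Rap against RS_DMSO 0.00049 in unnormalized ratios, 0.0010 in the value table, 0.085 with processed signals, 0.016 with offset 10, 0.00090 with array weights and -0.038 to 0.010 without each array. In RR_Rap against RS_Rap they were 0.11 with processed signals, 0.0097 with offset 10, 0.011 with array weights and -0.017 to 0.016 without each array, and for let-7c after 24 h -0.047 to 0.018 without each array. No loess, the value table and both centrings leave the trend with brightness in place. Processed signals shifted the median of all probes by -0.13 in both comparisons with DMSO. Median centring, and loess without the let-7 spots, which gave 0, 4 and 4 (4.8%, 22.8% and 28.8% of all probes), were chosen after seeing the data. A slide or scan block was not run, since each slide holds 1 array and all were scanned on 1 day. Signal over background limits let-7e, let-7f, let-7g and miR-98.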
